A study of Mus musculus with 5 samples.

Results

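The genes described here were 10 genes of the unfolded protein response and the integrated stress response, out of 23771 genes in the deposited table that compares cancer cells of the lung between 2 single-cell libraries. They were chosen by name, with earlier results of these data known. The 5 endoplasmic reticulum (ER) lumen proteins were Hspa5, Hsp90b1, Calr, Pdia4 and Sdf2l1, the Atf4 branch was Atf4, Ddit3 and Trib3, and Herpud1 and Xbp1 completed the set. The means of the 3 genes of the Atf4 branch summed to 1.31 UMIs per 10000 UMIs of a cell (CP10k) in the library from lungs primed with tumor-secreted factors (TSF) and to 3.51 CP10k in the control library. Atf4 made up most of both sums and was the 1 gene of the branch past 1.5-fold on the scale used for calls, while Ddit3 and Trib3 were not. Immediate-early genes were lower in the same library, at a sum of 57.3 against 133 CP10k. The 5 ER lumen genes summed to 28.8 against 28.9 CP10k, with 2 means higher and 3 lower in TSF. Pdia4 had the lowest ratio of these 5, at 1.03 against 2.04 CP10k, and its call was lost under both rescalings tried.

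When unfolded proteins build up in the ER, the sensors IRE1, PERK and ATF6 are released or activated at the ER membrane. IRE1 splices Xbp1 mRNA, and XBP1 and cleaved ATF6 then drive genes for chaperones and for the disposal of misfolded proteins. PERK phosphorylates the translation initiation factor eIF2alpha, which slows translation in general and favours translation of ATF4, a transcription factor whose targets include Ddit3 (CHOP) and Trib3. Other kinases reach eIF2alpha from amino acid shortage, haem shortage or double-stranded RNA, so that ATF4 also reports stresses outside the ER, and much of the control of both XBP1 and ATF4 lies in splicing and translation, which counts of mRNA do not show.

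Female BALB/c mice received 3 intravenous injections per week for 3 weeks of either TSF, prepared from 4T1 tumors, or control medium (CM). They were then given 25000 4T1 cells through the vein. 4T1 is a mammary carcinoma line of BALB/c origin, and the cells used carried a CD90.1 reporter. Both groups were 11 weeks old when lungs were taken at day 16, and each library held the pooled lungs of 3 mice, so each group had 1 library, no test between treatments could be made, and values of the 2 libraries are given side by side.

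The cancer cells numbered 29 in the CM library and 139 in the TSF library, by the cell types the authors assigned. Their median depth was 27679 and 26615 UMIs per cell. Cells under 10000 UMIs made up 8 of 29 (27.6%, exact 95% interval 12.7 to 47.2) in CM and 14 of 139 (10.1%, 5.62 to 16.3) in TSF, and the shallowest cells held 973 and 909 UMIs. The 10 carcinoma markers summed to 31.0 CP10k in CM and 31.8 CP10k in TSF, led by the keratins Krt18 and Krt8. Epcam, an epithelial adhesion molecule, had a UMI in 8 CM cells (27.6%, 12.7 to 47.2) and 95 TSF cells (68.3%, 59.9 to 76.0). The CD90.1 reporter had a UMI in 2 CM cells (6.90%, 0.846 to 22.8) and 48 TSF cells (34.5%, 26.7 to 43.1). Both shares were higher in TSF with intervals apart, as for 1.14% of the 10201 genes tested below. Of the 10 markers, 9 had a higher mean in TSF. Keratins made up most of the carcinoma marker signal in both libraries. Of the 11 leukocyte markers, 9 were listed at 0 in CM and 1 in TSF, Ptprc among those of CM and Lyz2 among those of both. Cd74, the invariant chain of class II antigen presentation, was at 21.5 CP10k in CM and 4.23 CP10k in TSF, and Cd79a had a UMI in 1 cell of each library. The highest of the others was S100a9, at 0 in CM and 0.685 CP10k in TSF, where 4 of 139 cells held a UMI of it. The authors' finer clustering placed 6 of the 29 CM cells (20.7%, 7.99 to 39.7) and 85 of the 139 TSF cells (61.2%, 52.5 to 69.3) in 1 of 2 cancer cell clusters, and the gene values were not analysed here by cluster. No cell barcode was shared by the cancer cells of the 2 libraries.

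Promoter sequences were read from RefSeq (GRCm38.p6), from 250 bases before to 50 bases after each gene's start, and all 10 genes matched. Positions in them count from the RefSeq start, which for 8 of the 10 lies up to 120 bases from the start of the GENCODE gene given with the values below. They are shown because the response elements of the chaperone arm and of the Atf4 arm differ in sequence. The classical ER stress element holds CCAAT and CCACG with 9 bases between them, on either strand. It was present in 39 of 32851 promoters (0.119%), which included those of Hspa5, Hsp90b1 and Calr. The windows below run 30 bases on the strand of the gene, with the letters of the element in capitals; that of Hspa5 has its element 65 to 47 bases before the RefSeq start, which is 120 bases inside the GENCODE gene, and Hsp90b1 holds 2 copies, the second of them and that of Calr on the opposite strand.
Hspa5, chr2:34772020-34772049, plus strand: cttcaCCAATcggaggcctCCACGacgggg
Hsp90b1, chr10:86705632-86705661, minus strand: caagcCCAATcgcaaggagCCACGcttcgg
Hsp90b1, chr10:86705527-86705556, minus strand: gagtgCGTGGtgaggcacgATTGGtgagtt
Calr, chr8:84847069-84847098, minus strand: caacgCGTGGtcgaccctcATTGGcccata

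A second form, ER stress element II, has ATTGG and CCACG separated by 1 base. It was found in 12 promoters (0.0365%), that of Herpud1 among them, 52 to 42 bases before the RefSeq start. The composite element bound by ATF4 with C/EBP proteins was searched as TGATGNAA on both strands and lay in 1304 promoters (3.97%), including those of Herpud1 and Trib3. In Trib3 it lay 15 to 22 bases after the RefSeq start, on the opposite strand, and the GENCODE gene starts 28 bases after the RefSeq start, so the element precedes that gene.
Herpud1, ER stress element II, chr8:94386368-94386397, plus strand: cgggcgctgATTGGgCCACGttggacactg
Herpud1, composite element, chr8:94386306-94386335, plus strand: accacggcgggTTgCATCAgcccgcacccc
Trib3, composite element, chr2:152344028-152344057, minus strand: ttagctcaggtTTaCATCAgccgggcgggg

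The XBP1 and ATF6 element TGACGTGG was in 222 promoters (0.676%) and in none of the 10. For Pdia4, Sdf2l1, Xbp1, Atf4 and Ddit3, the letters of the 4 elements were not in this window, which says nothing of the factors that act on them. A match is a description of letters and not a site.

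The chaperone genes were examined first. Levels are mean CP10k over all cancer cells of a library, and log2 differences are TSF over CM of mean CP10k with a pseudocount of 1, which understates the difference of low genes. Since the libraries count 1 UMI per captured 5' end, levels of different genes are not scaled by length. A gene was called higher or lower when it differed by more than 1.5-fold on that scale among the 10201 genes for which at least 10% of cancer cells in one or the other library held a UMI. All 10 genes passed that filter. By this rule 0 of the 10 were higher, where 0.755% of all 10201 genes were, and 2 of the 10 (Atf4 and Pdia4) were lower, where 1.95% of all were. The median over all genes was -0.03 and 40.3% of them lay above 0. Ratios of TSF to CM carry no pseudocount, and their median over all 10201 genes was 0.877.

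Hspa5 (chr2:34771970-34777547, plus strand) encodes BiP, the HSP70 of the ER lumen that also holds the 3 sensors inactive. Its mean was 7.29 CP10k in CM and 8.96 CP10k in TSF, a log2 difference of 0.27, and it had a UMI in 29 of 29 and 136 of 139 cells. Hsp90b1 (chr10:86690209-86705509, minus strand), the HSP90 of the ER known as GRP94, was the most abundant of the set at 16.1 CP10k in CM and 14.8 CP10k in TSF, with a UMI in 29 and 137 cells and a log2 difference of -0.11. Calr (chr8:84841850-84846934, minus strand), a calcium-binding lectin chaperone of glycoproteins, was at 3.02 CP10k in CM and 3.72 CP10k in TSF, with a UMI in 27 and 132 cells and a log2 difference of 0.23. For these 3 abundant chaperones the libraries were close, with ratios of TSF to CM between 0.920 and 1.23, and both directions occurred among them.

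Pdia4 (chr6:47796141-47813430, minus strand), a protein disulfide isomerase that forms and rearranges disulfide bonds, was at 2.04 CP10k in CM and 1.03 CP10k in TSF, a ratio of 0.503 and a log2 difference of -0.59. It had a UMI in 26 of 29 CM cells (89.7%, exact 95% interval 72.6 to 97.8) and in 114 of 139 TSF cells (82.0%, 74.6 to 88.0). Its call rested on a narrow margin, since its value exceeded the threshold by 0.00046 on the log2 scale, and it was not called when CP10k was rescaled to totals without ribosomal protein genes (-0.58) or centred on the median gene (-0.55). Sdf2l1 (chr16:17130138-17132383, minus strand), a partner of BiP and its J-domain proteins, was a low gene at 0.437 CP10k in CM and 0.322 CP10k in TSF. More TSF cells held a UMI of it, 75 of 139 (54.0%, 45.3 to 62.4) against 13 of 29 (44.8%, 26.4 to 64.3), although its mean was lower, and the intervals of these shares overlap.

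Herpud1 (chr8:94386438-94395377, plus strand) encodes an ER membrane protein of the degradation machinery that removes misfolded proteins. Its mean was 0.382 CP10k in CM and 0.414 CP10k in TSF, a log2 difference of 0.03, with a UMI in 13 and 75 cells. Xbp1 (chr11:5520659-5525893, plus strand), the mRNA that IRE1 splices, was at 1.46 CP10k in CM and 1.07 CP10k in TSF, a ratio of 0.729, with a UMI in 22 of 29 cells (75.9%, 56.5 to 89.7) and 101 of 139 cells (72.7%, 64.5 to 79.9). Neither reached the threshold. The table counts all Xbp1 transcripts together, so spliced and unspliced forms cannot be told apart.

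**Figure D1:**
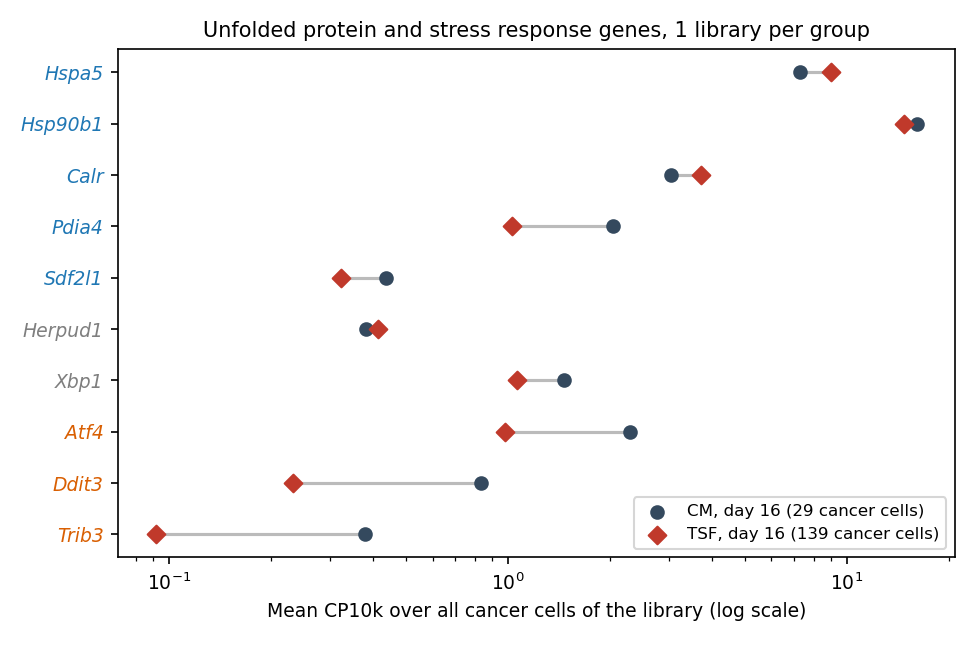
Mean CP10k (x axis, log scale) of the 10 genes (y axis) over all cancer cells of the CM library (circles, 29 cells) and the TSF library (diamonds, 139 cells) at day 16, with gene names in blue for the ER lumen, grey for Herpud1 and Xbp1 and orange for the Atf4 branch. The symbols lie close together for Hspa5, Hsp90b1, Calr and Herpud1, and the widest gaps are those of Trib3 (0.378 to 0.0919 CP10k) and Ddit3 (0.837 to 0.233 CP10k).

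The Atf4 branch was then compared. Atf4 (chr15:80255184-80257541, plus strand), the transcription factor at the centre of the integrated stress response, was at 2.30 CP10k in CM and 0.980 CP10k in TSF, a ratio of 0.427 and a log2 difference of -0.73. It had a UMI in 26 of 29 CM cells (89.7%, 72.6 to 97.8) and 107 of 139 TSF cells (77.0%, 69.1 to 83.7). Its log2 difference ranked 117 from the lowest of 10201 genes, and the call held under both rescalings (-0.74 and -0.70).

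Ddit3 (chr10:127290774-127296288, plus strand), which encodes the pro-apoptotic factor CHOP, was at 0.837 CP10k in CM and 0.233 CP10k in TSF, a ratio of 0.279. Its log2 difference of -0.57 stopped 0.010 short of the threshold, and it was past it when totals left out ribosomal protein genes (-0.63) but not when centred on the median gene (-0.54). A UMI was found in 10 of 29 CM cells (34.5%, 17.9 to 54.3) and 41 of 139 TSF cells (29.5%, 22.1 to 37.8). The annotation places a second Ddit3 entry on the same strand over this locus, which has no values of its own among the deposited genes. Mars lies on the opposite strand, at 0.334 CP10k in CM and 0.202 CP10k in TSF. Whether reads at this locus were shared was not tested. Trib3 (chr2:152337422-152344032, minus strand), a pseudokinase induced by ATF4 and CHOP that dampens both, was the lowest of the set at 0.378 CP10k in CM and 0.0919 CP10k in TSF, a ratio of 0.243. It had a UMI in 6 of 29 CM cells (20.7%, 7.99 to 39.7) and 21 of 139 TSF cells (15.1%, 9.60 to 22.2), and its log2 difference of -0.34 was within the threshold.

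With a pseudocount of 0.1, which weighs low genes more, the log2 differences were -1.15 for Atf4, -1.49 for Ddit3, -1.32 for Trib3 and -0.93 for Pdia4. On that scale these 4 of the 10 genes were past 1.5-fold lower, where 17.3% of all 10201 genes were, and 0 were higher, where 7.33% were. The median over all genes on that scale was -0.13. Hspa5, Hsp90b1, Calr, Herpud1, Xbp1 and Sdf2l1 stayed within 1.5-fold on both scales.

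**Figure D2:**
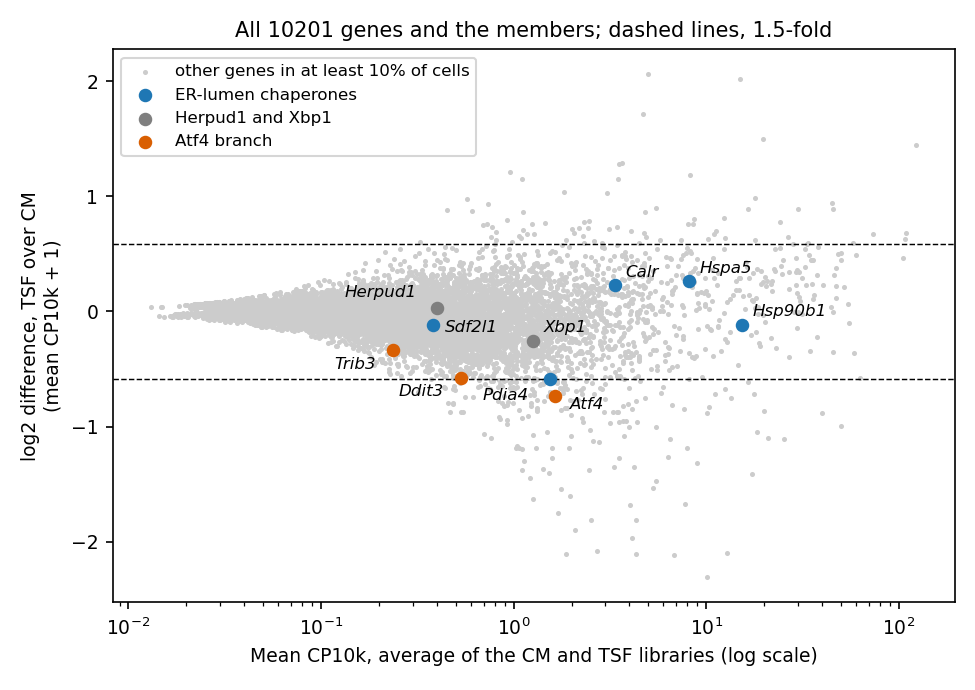
The log2 difference of TSF over CM in mean CP10k + 1 (y axis) against the average of both library means (x axis, log scale) for 10201 genes (grey points), with the 10 genes coloured by group and dashed lines at 1.5-fold. Atf4 and Pdia4 lie past the lower line and Ddit3 next to it, while Hspa5 and Calr lie above 0.

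Means of this kind combine how many cells hold a UMI with how much a positive cell holds. The exact intervals of the share of cells with a UMI overlapped between the libraries for all 10 genes, as they did for most of all 10201 genes. Of those, 1.14% had a share that was higher and 1.51% a share that was lower in TSF with intervals apart. The intervals cover counting error only. The share in a cell type that lacks these genes was not analysed here. Among cells with a UMI, the mean was 2.56 CP10k in CM and 1.27 CP10k in TSF for Atf4, 2.43 and 0.791 CP10k for Ddit3, and 1.83 and 0.608 CP10k for Trib3. For Pdia4 it was 2.28 CP10k in CM and 1.25 CP10k in TSF. The lower means of the Atf4 branch and Pdia4 therefore came mostly from the level in positive cells, which accounted for -1.01 of a log2 ratio of -1.23 for Atf4 and -1.62 of -1.84 for Ddit3, both without a pseudocount. That level also depends on depth, since 1 UMI counts 10.3 CP10k in the shallowest CM cell and 0.361 CP10k at the median depth. Cells under 10000 UMIs made up 27.6% in CM and 10.1% in TSF, and the split was not corrected for this. For Sdf2l1 and Herpud1 the 2 parts had opposite signs, with 0.27 from the share in each and -0.71 and -0.15 from the level. The level was the larger part for every gene except Herpud1, so this was not particular to the Atf4 branch and Pdia4.

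**Figure D3:**
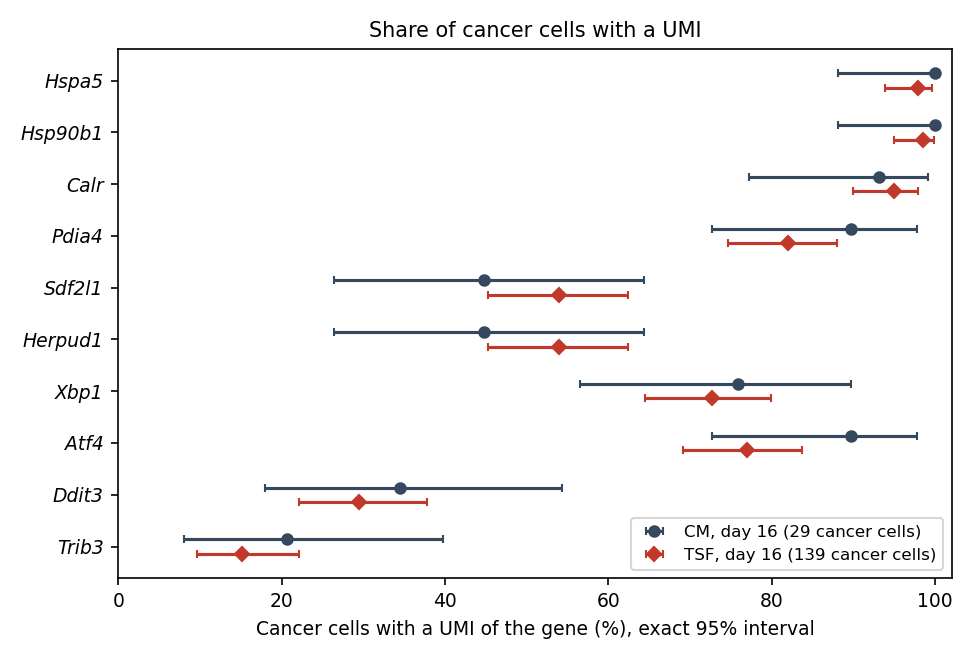
Percent of cancer cells with a UMI (x axis) for each of the 10 genes (y axis), in the CM library (circles, 29 cells) and the TSF library (diamonds, 139 cells), with exact 95% intervals that cover counting error only. The intervals of the 2 libraries overlap for every gene, and those of CM are wider.

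**Figure D4:**
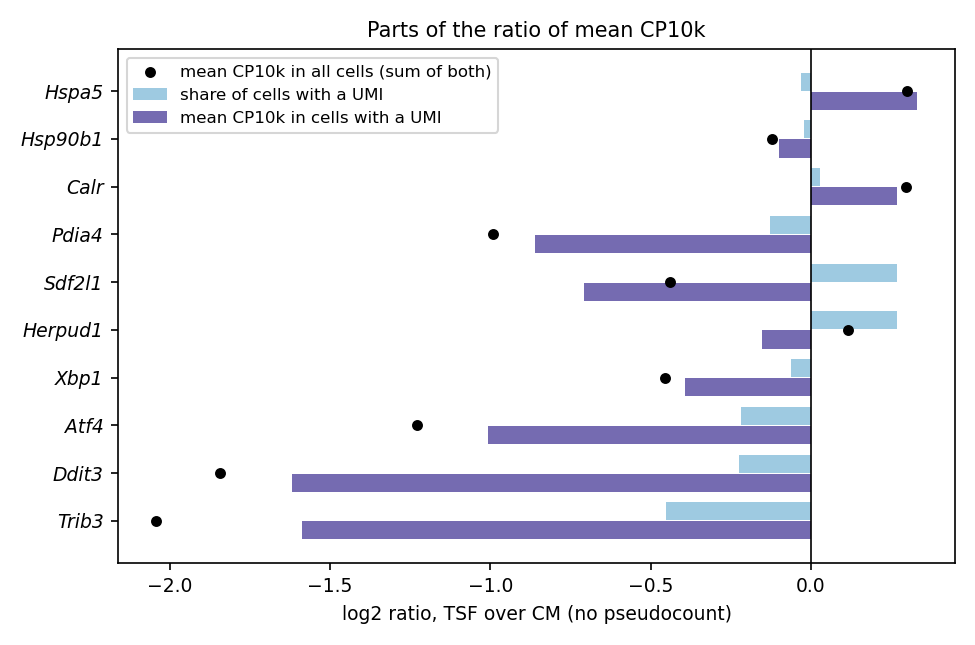
The log2 ratio of TSF over CM without a pseudocount (x axis) for each gene (y axis), split into the share of cells with a UMI (light bars) and the mean CP10k of cells with a UMI (dark bars), which add up to the ratio of means over all cells (points). The dark bar is the longer one for every gene except Herpud1, and the 2 bars point in opposite directions for Hspa5, Sdf2l1 and Herpud1.

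How few molecules stand behind the low genes was measured from the deposited means. Every gene seen in a single cancer cell, 1373 genes in CM and 1686 genes in TSF, had a mean that equalled a whole number of UMIs in 1 of the cells, to within 1e-06 UMI. Each UMI in the shallowest CM cell would add 0.354 CP10k to the CM mean, compared with 0.0125 CP10k at the median depth, and in TSF these steps were 0.0791 and 0.00270 CP10k. The CM sums of Trib3, Sdf2l1 and Herpud1 over cells (11.0, 12.7 and 11.1 CP10k) were too small for the shallowest CM cell to hold a UMI of them, which would need at least 11.5, 13.4 and 13.4 CP10k. The Trib3 value of CM thus held at least 7 UMIs in 6 cells. For the other genes the shallowest cell could have held a UMI, and the CM sums allow up to 2 UMIs of Ddit3, 5 of Atf4 and 4 of Pdia4 in it. Without that many UMIs the ratio of TSF to CM would be 1.82 for Ddit3, 1.87 for Atf4 and 1.64 for Pdia4, and with 1 UMI less it would be 0.484, 0.505 and 0.609. The CM sums also allow up to 18 UMIs of Hspa5, 43 of Hsp90b1, 7 of Calr and 3 of Xbp1 in that cell. Without them the ratios would be 9.84, 17.4, 6.83 and 2.66. Without the shallowest CM cell, the deposited means thus do not bound the direction of Ddit3, Atf4, Pdia4, Hsp90b1 and Xbp1. Nor do they bound the size of the ratio for Hspa5 and Calr. No UMI of Trib3 could lie in the shallowest cell of either library. Deeper cells were not checked for Trib3, so its direction was not bounded either. Which cells held the UMIs was not analysed here.

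Ratios between genes of the same library do not change with a single factor per library, although mean CP10k still weights each cell by its own depth. Hspa5 was at 3.18 times Atf4 in CM and at 9.14 times Atf4 in TSF, and at 3.57 and 8.71 times Pdia4. Hsp90b1 was at 2.21 times Hspa5 in CM and 1.65 times in TSF. The ratio of Hspa5 to Atf4 mRNA and to Pdia4 mRNA was thus higher in TSF, and the ratio of the 2 major chaperones differed less. These ratios restate the means above, where Hspa5 had the highest ratio of TSF to CM of the 10 genes (1.23). They carry the same limit on the direction of Atf4 and Pdia4. The median log2 difference was -0.11 for the 5 ER lumen genes and -0.57 for the 3 genes of the Atf4 branch, a gap of 0.46. Without Pdia4 the other 4 ER lumen genes summed to 26.8 CP10k in CM and 27.8 CP10k in TSF.

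In the wider pathway, 24 ER chaperones and folding enzymes were listed and all were tested, with a median log2 difference of 0.02. Of these, 1 was higher and 2 were lower past 1.5-fold, beside 0.755% and 1.95% of all 10201 genes. The higher one was Ero1l, the oxidase that passes electrons from protein disulfide isomerases to oxygen, at 0.612 CP10k in CM and 1.64 CP10k in TSF. It had a UMI in 11 of 29 and 93 of 139 cells, shares whose intervals did not overlap. A higher share with intervals apart was found for 1.14% of all genes. Beside Pdia4, the lower one was Pdia3, the disulfide isomerase that works with calreticulin on glycoproteins, at 7.48 CP10k in CM and 4.20 CP10k in TSF. Pdia6, another isomerase of the family, was at 6.13 CP10k in CM and 7.86 CP10k in TSF, so that Pdia3 was at 1.22 times Pdia6 in CM and 0.534 times in TSF. Pdia6 was named after its values were seen. The disulfide machinery thus included both directions.

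Of 28 genes of ER-associated degradation and translocation, 27 were tested and none was past 1.5-fold, with a median of 0.03. The 13 sensors and factors of the unfolded protein response had 12 tested, none past the threshold and a median of -0.19. The sensors themselves, named after their values were seen, were low in both libraries: Ern1 (IRE1) was at 0.317 CP10k in CM and 0.235 CP10k in TSF, Atf6 was at 0.460 and 0.252 CP10k, and Eif2ak3 (PERK) had a UMI in 1 of 29 and 18 of 139 cells. The 15 genes of eIF2, its kinases, its phosphatase subunits and its exchange factor had a median of -0.10 and none past the threshold.

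Among 32 partners and known targets of ATF4, with Atf4, Ddit3 and Trib3 included, 27 were tested. Of these, 20 lay below 0 and the median was -0.12, beside -0.03 over all 10201 genes, of which 40.3% lay above 0. Without Atf4, Ddit3 and Trib3, 17 of 24 lay below 0 and the median was -0.08. Of the 27, none was past 1.5-fold higher and 4 were lower, beside 0.755% and 1.95% of all genes. The 4 were Atf3, Slc3a2, Atf4 and Slc7a5. Slc7a5 and Slc3a2 encode the 2 chains of a transporter of large neutral amino acids, and they were at 1.13 and 2.09 CP10k in CM and at 0.346 and 0.802 CP10k in TSF. Atf3, a stress-induced factor of the same family as ATF4, was at 17.5 CP10k in CM and 2.73 CP10k in TSF. Nupr1, a stress-induced chromatin protein, went the other way at 2.58 CP10k in CM and 4.35 CP10k in TSF, a log2 difference of 0.58 that did not reach the threshold. Its share of cells with a UMI was higher in TSF with intervals apart, at 87.8% (81.1 to 92.7) against 58.6% (38.9 to 76.5). That held for 1.14% of all genes, and Nupr1 was named after its values were seen.

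Atf3 is also an immediate-early gene that is induced when tissue is dissociated. The 12 immediate-early genes listed, Atf3 among them, summed to 133 CP10k in CM and 57.3 CP10k in TSF, with 7 of 12 past 1.5-fold lower, none higher and a median of -1.08. Of 20 cytosolic and mitochondrial chaperones tested out of 21, 3 were lower, namely Dnajb1 (7.14 CP10k in CM and 1.08 CP10k in TSF), Hspa1b (4.02 and 0.932 CP10k) and Hspa8 (52.3 and 28.0 CP10k), and the median was -0.28. Hspb1 was higher, at 0.019 and 0.879 CP10k, and the other 16 were past the threshold in neither direction. For both lists, the shares over all 10201 genes were 0.755% higher and 1.95% lower. The 13 mitochondrially encoded genes summed to 211 CP10k in CM and 220 CP10k in TSF, with a median of -0.0014 and no gene past the threshold. The part of the immediate-early genes, of Cd74, of the unlike shares of Epcam and CD90.1 and of the finer clusters in the lower level of Atf4, Ddit3 and Trib3 was not tested.

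**Figure D5:**
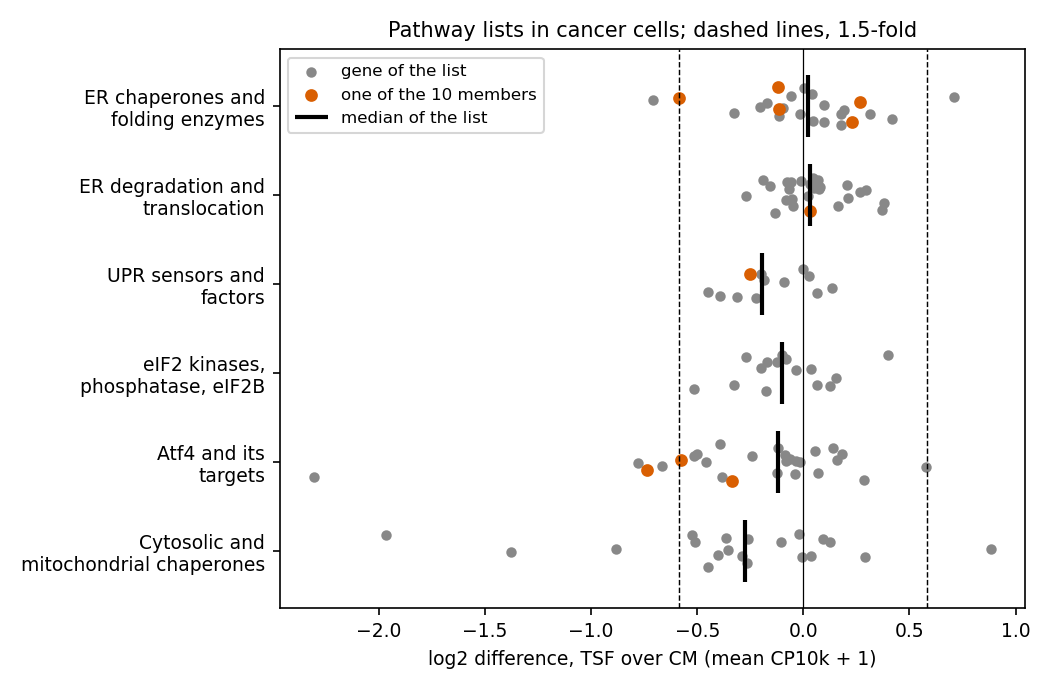
The log2 difference of TSF over CM in mean CP10k + 1 (x axis) for each tested gene of 6 pathway lists (y axis), with the 10 genes described in orange, the median of each list as a black bar and dashed lines at 1.5-fold. The medians of the ER chaperones (0.02) and of degradation and translocation (0.03) lie near 0, and that of cytosolic and mitochondrial chaperones (-0.28) is the lowest, with Atf3 at the far left among Atf4 and its targets.

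The gene set collection deposited with the series held 11 sets named for the unfolded protein response, its sensors or the eIF2alpha kinases. Their median log2 differences ran from -0.37, for the response of the kinase HRI to haem deficiency, to 0.24, for the response of the kinase GCN2 to amino acid deficiency, and 10 of the 11 lay below 0, where the median over all 10201 genes was -0.03. The medians of the IRE1alpha set (-0.03) and of the Reactome set for the whole response (-0.04) were next to that value. Each set held between 2 and 7 of the 10 genes described, and medians without them were not computed. Of the 95 tested genes of the GCN2 set, 79 were ribosomal protein genes, and without them its median was -0.15. In the Hallmark set for the unfolded protein response 107 of 113 genes were tested, 0 were past 1.5-fold higher and 4 were lower, namely Slc7a5, Srpr, Atf4 and Atf3, with a median of -0.09, beside 0.755% higher and 1.95% lower over all genes. Atf4 was among the lower genes of 10 of the 11 sets, which share members and are not separate measurements. Ribosomal protein genes took 18.6% of the CP10k total in CM and 23.9% in TSF, and leaving them out of the total shifted log2 ratios without a pseudocount by 0.10.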

How the data were processed

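Single-cell 5' libraries of lungs were compared for the CM and TSF groups of day 16, 2 of the 5 libraries of the series, with groups taken from the labels. Per the paper's methods and the submitters' processing notes, the authors mapped reads with Cell Ranger to mm10 (GRCm38.p6), to which the reporter was added as an extra sequence, imported counts with Seurat 4.1.0, removed ambient RNA with a customised SoupX, which can lower genes that are abundant in free RNA, and assigned cell types from clusters, with the cancer cells identified by clustering and CD90.1. Per those methods, clusters of mixed type were removed as doublets in other cell classes, but no doublets were removed from the cancer cells, and none were removed here. The deposited gene table gives mean CP10k per library, a normalized signal averaged over cells, the number of cells with a UMI as a count, and the percent of cells with a UMI. The deposited cell table gives UMI counts per cell and the percent of mitochondrial UMIs, together with the authors' cell types. Cells of 2 further libraries in that table belong to no sample of the labels and were left out. Columns of the authors' own comparison (log2 fold change, p-value, q-value, ranking score and enrichment scores) were not used.

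From these values, log2 differences with a pseudocount of 1, shares with exact Clopper-Pearson 95% intervals, and means over positive cells were computed with Python 3.11.15, numpy 2.4.6, pandas 2.3.3 and scipy 1.17.1, and plots with matplotlib 3.10.9. A call needed 1.5-fold among genes with a UMI in at least 10% of cells of either library. With 1 library per group no p-value was made, and nothing separates treatment from library. The scripts were tested on simulated data. Alternatives were a pseudocount of 0.1, totals without Rpl and Rps genes, centring on the median gene, other filters, a 2-fold threshold and the share of cells. The bounds on UMIs were added after seeing the data. Gene coordinates came from GENCODE M21 on GRCm38. The 10 genes and the lists were chosen with earlier results of these data known. Of each wider list, genes past 1.5-fold were named, at most 3 in each direction beside the 10 genes themselves, and genes named outside that rule are marked in the text. Sets whose names hold terms of the unfolded protein response, its sensors or the eIF2alpha kinases were taken from the deposited collection, less 1 of the 12 that matched by letters alone.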

Additional observations from a re-analysis of the deposited data

How the results depend on the processing

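The limits are those of 1 library per group, 29 CM cells, a few UMIs behind Trib3 and Ddit3, and no value per cell. No paired analysis was possible because each group had 1 library, and for the same reason no library could be left out. Medians below are log2 differences. Over all 10201 genes the median was -0.13 with a pseudocount of 0.1, against -0.03 as reported. With a pseudocount of 0.1, the Atf4 branch median was -1.32 and its gap to the ER lumen genes 1.20 (0.46 as reported), ER chaperones had 3 higher, UPR sensors and factors 5 lower (median -0.47), eIF2 genes 3 lower and 1 higher (median -0.22), Atf4 and its targets 12 lower and 1 higher (median -0.37), and cytosolic chaperones 9 lower (median -0.39). With totals without Rpl and Rps genes that gap was 0.61. Under those totals, and under centring, ER chaperones had 1 lower and Atf4 and its targets 1 higher. Cytosolic chaperones had 0 higher among genes in at least 25% of cells, at 2-fold, and by share of cells. At 2-fold ER chaperones had 0 higher and 0 lower, and Atf4 and its targets 1 lower. By share of cells ER chaperones had 0 lower and Atf4 and its targets 1 lower and 1 higher. Over all 10201 genes the counts were 77 higher and 199 lower, against 748 and 1762 with a pseudocount of 0.1, 134 and 223 with totals without Rpl and Rps genes, 13 and 54 at 2-fold, and 116 and 154 by share of cells. The lower genes made up 72.1% of calls as reported, 62.5% with totals without Rpl and Rps genes and 57.0% by share of cells.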
